A study of Mus musculus with 32 samples.

Results

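HNF4A occupancy was described at 10 genes that build the microvilli of intestinal epithelial cells, namely Vil1, Ezr, Myo1a, Espn, Pls1, Ush1c, Eps8, Cdhr2, Cdhr5 and Cdh17. Chromatin immunoprecipitation and sequencing (ChIP-seq) for HNF4A had been performed on jejunal intestinal epithelial cell (IEC) preparations from 8 male C57BL/6J mice aged 10 to 12 weeks, and peaks had been called in each mouse separately. The 4 GF+HFM mice were germ-free, and the 4 CV+HFM mice had been raised germ-free until a conventional microbiota (CV) was introduced 14 days before collection. All 8 mice received a high-fat meal (HFM), a gavage of egg yolk emulsion, 2 hours before collection, so the comparison concerns microbes after this meal only. The preparations were not sorted. They were mainly epithelial, with villus cells and a part of the crypts, and also contained some mesenchymal cells. A difference in cell composition and a difference in binding per cell therefore cannot be told apart. The lists hold peaks and no expression, so the labelled tissue was not checked against its expressed markers here. Peaks of the 8 lists that shared at least 1 bp were merged, which gave 45552 sites (mm9). Of these, 118 lay in the bodies of the 10 genes or within 20 kb on either side, and a library was said to call a site when at least 1 of its peaks lay in it.

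Microvilli are finger-like protrusions of the apical membrane that together form the brush border, the absorptive surface of the enterocyte. Each is held up by a core of parallel actin filaments that bundling proteins cross-link, motor and linker proteins tie the core to the membrane, and protocadherins at the tips link neighbouring microvilli to each other. HNF4A is a nuclear receptor that binds DNA as a homodimer at direct repeats and is a known regulator of enterocyte differentiation genes. Among the members, Vil1 (villin), Espn (espin) and Pls1 (plastin 1, or fimbrin) bundle actin, Eps8 caps and bundles filaments at the tips, Ezr (ezrin) links actin to the membrane, and Myo1a is the brush border myosin that does so along the core. Cdhr2 and Cdhr5 are the protocadherins of the tip links, Ush1c (harmonin) is their scaffold, and Cdh17 (liver-intestine cadherin) is an adhesion protein of the lateral membrane.

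The sequence under the peaks is shown for 6 of the 10 members. The site of each member with the highest mean width percentile was used, a percentile being the rank of the peak's width among all peaks of its own list, with 0 where the site was not called. Sequences are the NCBIM37 (mm9) reference, plus strand, over at most 200 bases at the middle of the stretch common to all libraries that called the site. A pair of patterns was searched on both strands and is in capitals where matched: the HNF4 core CAAAGTCCA with up to 1 mismatch, and 2 copies of AGGTCA with 1 base between them, with up to 2 mismatches. Both patterns describe forms of the same kind of element, so 1 stretch can match both. Vil1 is shown because its site was broad in all libraries, and the other 5 because they held a match:
Vil1 site 8, chr1:74455304-74455503: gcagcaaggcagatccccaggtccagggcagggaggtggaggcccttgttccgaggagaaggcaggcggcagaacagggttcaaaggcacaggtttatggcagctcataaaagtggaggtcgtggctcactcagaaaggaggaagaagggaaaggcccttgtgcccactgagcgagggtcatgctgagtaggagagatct
Ezr site 1, chr17:6932412-6932608: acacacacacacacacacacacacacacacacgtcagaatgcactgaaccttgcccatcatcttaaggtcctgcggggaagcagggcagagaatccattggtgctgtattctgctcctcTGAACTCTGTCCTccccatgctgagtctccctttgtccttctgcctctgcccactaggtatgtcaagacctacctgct
Eps8 site 19, chr6:137519285-137519428: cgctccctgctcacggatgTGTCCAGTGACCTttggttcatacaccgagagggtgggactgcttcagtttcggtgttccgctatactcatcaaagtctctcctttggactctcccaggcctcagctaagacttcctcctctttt
Ush1c site 2, chr7:53492586-53492785: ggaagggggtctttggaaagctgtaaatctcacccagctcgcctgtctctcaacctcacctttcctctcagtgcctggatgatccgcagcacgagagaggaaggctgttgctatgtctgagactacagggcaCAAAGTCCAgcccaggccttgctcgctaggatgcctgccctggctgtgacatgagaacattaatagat
Espn site 10, chr4:151534952-151535151: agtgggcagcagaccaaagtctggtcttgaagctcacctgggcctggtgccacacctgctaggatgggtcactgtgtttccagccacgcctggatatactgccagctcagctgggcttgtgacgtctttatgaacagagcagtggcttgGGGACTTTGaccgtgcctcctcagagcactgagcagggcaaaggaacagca
Cdh17 site 5, chr4:11690247-11690417: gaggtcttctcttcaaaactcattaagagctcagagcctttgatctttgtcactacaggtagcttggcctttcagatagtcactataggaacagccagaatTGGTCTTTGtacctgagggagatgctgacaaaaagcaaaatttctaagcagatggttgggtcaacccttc

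The match at Ush1c was exact and on the plus strand. The matches at Espn and Cdh17 were to the core on the minus strand with 1 mismatch, and those at Ezr and Eps8 were to the repeat on the minus strand with 2 mismatches. No match was found in the sequence of Vil1, nor in those of the sites chosen in the same way at Myo1a, Pls1, Cdhr2 and Cdhr5. The stretch searched was only 53 bases at Myo1a and 78 at Cdhr5. At Pls1 no stretch was common to the libraries, so 200 bases at the middle of the merged site were searched. In 200-base windows at the site midpoints, the core pattern was present at 26 of the 118 member sites (22%) against 29% of the 45325 merged sites with a window in the reference. The repeat pattern was present at 16 member sites (13.6%) against 12.9% of all sites. The exact match at Ush1c lay outside its midpoint window, whereas the midpoint window of Vil1 site 8 held the repeat with 2 mismatches. The exact core was in 5 member windows, at Ezr site 11, Myo1a sites 3 and 4, Eps8 site 1 and Cdhr2 site 1, which is 4.24% against 4.89% of all sites. The repeat without mismatch was in 2, at Espn site 6 and Eps8 site 2, and 3 member windows held both patterns. A match describes the letters only, and a window without one says nothing about the factor.

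Sites were numerous around most members. Eps8 held 22, Vil1 and Ezr 19 each, Pls1 16, Espn and Cdh17 10 each, Cdhr2 9, Myo1a 7, Cdhr5 4 and Ush1c 2. The median member had 10 sites and 1.2 sites per 10 kb of gene and flanks, where the median of 22367 annotated protein-coding genes had 2 sites and 0.22 per 10 kb. Per 10 kb, Vil1 was the most densely occupied member with 2.87 sites, at the 99.9th percentile of coding genes, and Ezr followed with 2.24, at the 99.3rd percentile. Eps8, the longest member, had the most sites but 1.01 per 10 kb, at the 88.5th percentile. Ush1c stood apart with 0.241 sites per 10 kb, at the 53rd percentile. Of the 118 sites, 73 lay in introns, 26 upstream, 10 downstream, 5 over a gene start and 4 over exons. For 27 sites another coding gene was nearer than the member, for example Ctdsp1 for Vil1 sites 1 to 5 and Rnf44 for Cdhr2 sites 1 to 6, so these belong to the members by distance only.

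**Figure D1:**
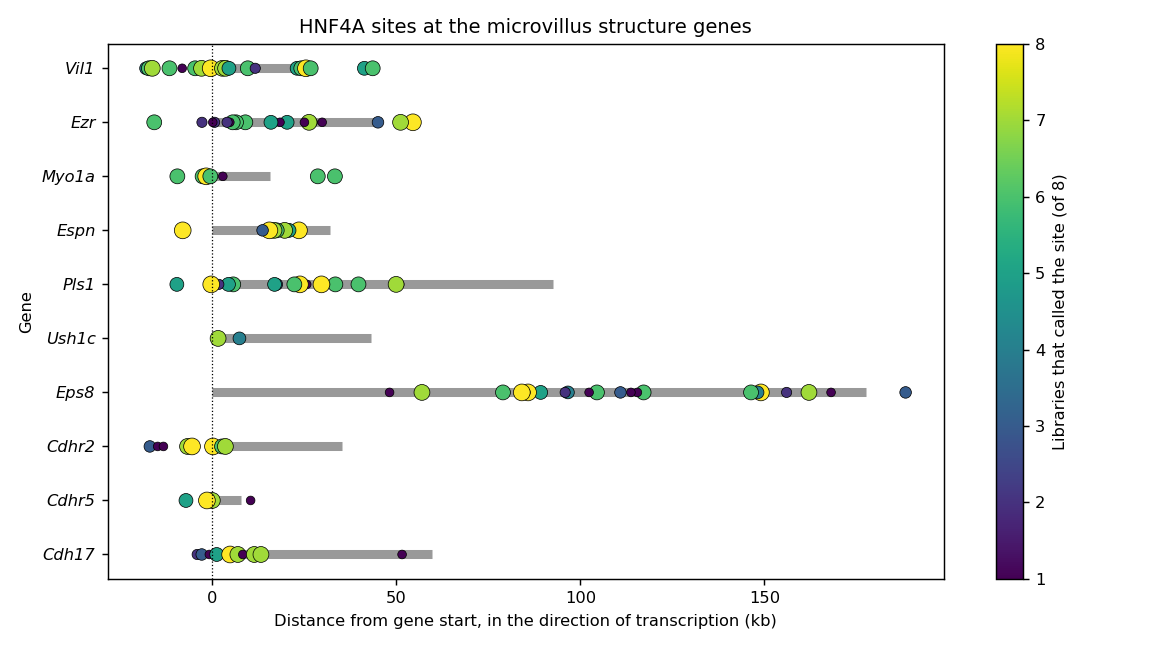
Each point is a merged HNF4A site, placed on the horizontal axis by the distance of its midpoint from the gene start in kb along the direction of transcription; grey bars are the gene bodies, and colour and size give how many of the 8 libraries called the site. Sites called in all 8 libraries include merged sites that cover the gene starts of Vil1, Pls1 and Cdhr2, though at Vil1 and Pls1 single peaks need not reach the start. The one of Ezr lies beyond the end of the gene and those of Eps8 deep inside it.

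A site called in every library was found at all members but Ush1c. All 8 libraries called 17 of the 118 member sites (14.4%), against 3445 of all 45552 sites (7.56%) and 7.76% of sites within 20 kb of coding genes. Such a site was present at 9 of the 10 members and at 16.8% of coding genes, a comparison given without a test because the genes were chosen with results in view. Only 65.5% of coding genes had any site, and their median was 2 sites beside 10 at the members. The part of the number of sites in this difference was not tested. Espn, Pls1 and Eps8 had 3 each, Vil1 and Cdhr2 had 2 each, and Ezr, Myo1a, Cdhr5 and Cdh17 had 1 each, while Ush1c had none. At the other end, 26 member sites (22%) were called in a single library, close to the 21.6% of all sites. Of the 17 shared sites, 3 had their midpoint within 1 kb of the gene start and 7 within 1 kb of the start of any annotated transcript. For 4 of the 17 another coding gene was nearer than the member, among them the only shared sites of Ezr and Cdhr5.

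Among the actin bundlers, Vil1 carried its broadest site over the gene start. The merged site covers the start at 74455950, but the stretch common to all 8 libraries, chr1:74455214-74455592, ends upstream of it. The widest peak of CV+HFM replicate 4 was this stretch, so it did not reach the start. Site 8 (chr1:74454706-74456288, midpoint 453 bp upstream) was at width percentiles 99.2, 99.8, 99.0 and 98.7 in GF+HFM replicates 1 to 4 and 99.5, 98.8, 99.8 and 97.1 in CV+HFM replicates 1 to 4. Thus in all 8 mice this peak was among the broadest few percent of its list, and the group ranges overlapped. Its peaks spanned 1160, 1160, 1346 and 1489 bp in GF+HFM and 1122, 481, 1082 and 379 bp in CV+HFM. The second shared site of Vil1, site 16 (chr1:74480902-74481859), lay 25430 bp into the gene in intron 19. Its percentiles were 84.5, 88.8, 83.8 and 88.6 in GF+HFM and 89.8, 78.1, 77.0 and 64.4 in CV+HFM, which also overlapped. Around the start, sites 7 and 9, at 2936 bp upstream and 2741 bp into intron 1, were each called in all 4 germ-free mice and in 3 colonized mice.

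Pls1 also had a shared site over its start, and another pair in its long first intron. At sites 15 and 6 the widest peaks of the 8 libraries had no base common to all. Separate peaks were thus joined by the merging, and a call at site 15 need not lie at the start. Site 15 (chr9:95745122-95746929, midpoint 296 bp upstream) was at percentiles 93.6, 89.5, 99.4 and 99.5 in GF+HFM and 95.2, 93.7, 93.1 and 54.6 in CV+HFM. Only CV+HFM replicate 4, the library with the fewest peaks, fell well below the rest. Site 6 (chr9:95715438-95716726, 29648 bp inside the gene and 257 bp from the start of a shorter transcript) was at 98.2, 88.5, 97.3 and 97.4 against 98.0, 73.4, 98.2 and 84.7. Site 8 (chr9:95721487-95722379) was at 92.7, 93.8, 88.9 and 88.7 against 91.4, 61.1, 95.8 and 68.5. At both intronic sites, CV+HFM replicates 1 and 3 were within or above the GF+HFM range and replicates 2 and 4 below it.

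At Espn, no site lay within 1 kb of the gene start, but Espn has 20 annotated transcripts and several sites adjoined the starts of short ones. Site 10 (chr4:151532819-151536236), which is 3418 bp long and the widest of the 118, was centred 8048 bp upstream and overlapped Hes2, the neighbouring gene. It was at percentiles 97.3, 91.4, 99.8 and 99.1 in GF+HFM and 90.4, 94.2, 94.9 and 97.5 in CV+HFM, so the groups overlapped. Site 1 (chr4:151502280-151503604, intron 11, 92 bp from a transcript start) was at 93.2, 93.8, 97.7 and 96.7 against 96.0, 92.7, 89.3 and 74.8. Site 8 (chr4:151510723-151511228, intron 5) was the narrowest of the 3. It was at 80.7, 63.6, 56.7 and 48.4 in GF+HFM and 75.3, 63.0, 79.1 and 73.8 in CV+HFM, and the ranges overlapped.

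Eps8 had no site near its annotated gene start. The nearest, site 22, lay 48152 bp inside intron 1 and was called in GF+HFM replicate 2 alone, at percentile 10.5. Its 3 shared sites were all intronic. Site 19 (chr6:137518819-137519814, intron 2, 222 bp from a transcript start) was at 85.1, 82.4, 91.2 and 92.7 in GF+HFM and 86.0, 73.1, 68.2 and 67.0 in CV+HFM. Site 17 (chr6:137517203-137518031), close by in the same intron, was at 81.9, 86.7, 87.5 and 86.7 against 79.9, 38.7, 89.7 and 50.6. Site 5 (chr6:137453858-137454861, intron 15) was at 91.1, 95.0, 95.7 and 88.8 against 97.6, 42.2, 94.8 and 19.8. As at Pls1, CV+HFM replicates 2 and 4 were the low values at the latter pair, while replicate 1 overlapped GF+HFM at site 19 and exceeded it at site 5.

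The membrane linkers differed in where their shared site lay. For Ezr, site 1 (chr17:6931963-6933310) was 9080 bp beyond the end of the gene, inside Sytl3. It was at percentiles 96.6, 98.7, 94.8 and 97.8 in GF+HFM and 97.7, 99.6, 98.7 and 79.0 in CV+HFM, and the groups overlapped. By contrast, the site over the Ezr start, site 17 (chr17:6986785-6987254), was called in GF+HFM replicate 1 only, at percentile 76.9. In the gene body, site 6 (chr17:6960038-6961676, intron 2) was called in 4 GF+HFM libraries at 94.9, 83.1, 80.6 and 99.2. In CV+HFM it was at 88.0, 32.6 and 57.0 in replicates 1 to 3 and was not called in replicate 4. The widest peaks of the libraries that called it had no base common to all.

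For Myo1a, a pair of sites lay just upstream of the gene start. Site 3 (chr10:127140069-127141050, midpoint 1666 bp upstream) was called in all 8 libraries, at 77.1, 86.3, 91.4 and 87.5 in GF+HFM and 86.3, 59.2, 83.2 and 11.6 in CV+HFM. Site 4 (chr10:127141144-127142218) ended 8 bp short of the gene start and was at 93.6, 80.9, 89.5 and 92.3 in GF+HFM. It was called in 2 CV+HFM libraries, at 89.9 in replicate 1 and 83.1 in replicate 3, both within the GF+HFM range. Both windows held an exact core pattern.

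The protocadherin genes were bound at or close to their starts. Cdhr2 site 7 (chr13:54802569-54803431, over the gene start) was at 86.8, 94.0, 91.1 and 84.8 in GF+HFM and 84.5, 47.9, 68.0 and 77.3 in CV+HFM. The lowest GF+HFM value was 84.83 and the highest CV+HFM value 84.49. Ranked among the 3445 sites called in all 8 libraries, the same site was at 43.9, 71.8, 61.4 and 42.8 in GF+HFM and 43.2, 22.0, 21.7 and 70.6 in CV+HFM, and the groups overlapped. Its broader neighbour, site 6 (chr13:54796564-54798048, midpoint 5516 bp upstream), was at 99.5, 99.2, 98.1 and 98.4 against 99.5, 63.5, 97.8 and 84.2. Cdhr5 site 2 (chr7:148462256-148463123) was centred 4 bp from the gene start and called in 7 libraries. It was at 90.9, 86.9, 70.8 and 80.7 in GF+HFM and 94.3, 57.5 and 78.1 in CV+HFM replicates 1 to 3. Cdhr5 site 3 (chr7:148463677-148464634, midpoint 1470 bp upstream, overlapping Sct) was at 96.4, 96.0, 91.1 and 90.2 against 95.7, 96.1, 96.3 and 33.5. At that site CV+HFM replicates 1 to 3 were all within the GF+HFM range, and replicate 4 had a peak of 78 bp.

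The scaffold and the lateral cadherin had their main sites in the first intron. Ush1c site 2 (chr7:53491557-53493056, midpoint 1566 bp inside the gene) was at 69.6, 70.3, 98.7 and 98.7 in GF+HFM. In CV+HFM it was at 77.7, 80.9 and 38.1 in replicates 1 to 3 and not called in replicate 4. The other Ush1c site, 7367 bp inside the gene, was called in 3 germ-free mice and 1 colonized mouse at percentiles from 10.4 to 16.5. Cdh17 site 5 (chr4:11689559-11690691, 4831 bp inside the gene) was at 93.1, 92.9, 97.1 and 94.8 against 90.8, 41.5, 95.2 and 75.9. Cdh17 site 9 (chr4:11697921-11699085, over exon 3) was nearly as broad, at 97.6, 84.7, 94.7 and 96.0 in GF+HFM and 84.6, 88.6 and 87.0 in CV+HFM replicates 1 to 3. The site nearest the Cdh17 start, site 3, lay 806 bp upstream and was called in GF+HFM replicate 3 alone, at 12.4.

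**Figure D2:**
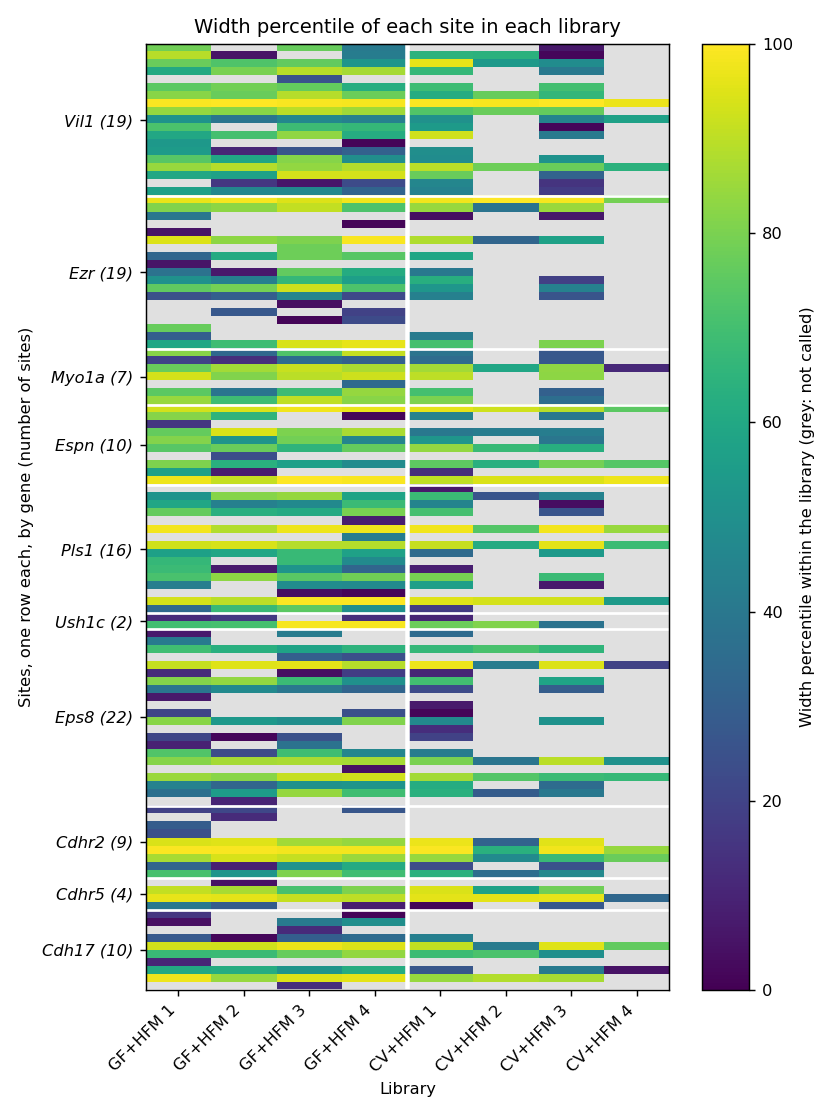
Each row is 1 of the 118 sites, grouped by gene with the number of sites, and each column is a library; colour gives the width percentile of the site within that library's list, and grey means no call. Grey covers most of the CV+HFM 2 and CV+HFM 4 columns, while CV+HFM 1 resembles the germ-free columns with 84 of 118 sites called.

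The effect of microbes was first examined as the number of member sites each library called. GF+HFM replicates 1 to 4 called 96, 80, 85 and 91 of the 118 sites, and CV+HFM replicates 1 to 4 called 84, 34, 68 and 19. The means were 88 ± 6.98 and 51.25 ± 29.95 (SD, n = 4 each), a difference of -36.75 sites, and the groups overlapped because CV+HFM replicate 1 called more than GF+HFM replicate 2. The lists themselves differed in the same order within CV+HFM, with 29345, 9206, 21033 and 4533 peaks against 31061 to 36846 in GF+HFM. Member sites followed these totals, with a smaller difference in share than all sites. The libraries called 74.6% ± 5.91 of member sites in GF+HFM and 43.4% ± 25.4 in CV+HFM, where they called 71.6% ± 5.41 and 33.1% ± 23.4 of all sites. The ratio of the member to the overall share was 1.06, 1.06, 0.999 and 1.04 in GF+HFM and 1.171, 1.501, 1.332 and 1.795 in CV+HFM. Within CV+HFM the ratio was higher the shorter the list, and every GF+HFM list was longer than every CV+HFM list. A difference in the ratio between groups and the length of the lists therefore cannot be told apart. No p is given for these values, since the genes were chosen with earlier results of these data known. When each list was reduced to its widest 4533 peaks, the libraries called 17, 18, 26 and 22 member sites in GF+HFM and 21, 23, 19 and 19 in CV+HFM, a difference of -0.25. With CV+HFM replicates 2 and 4 left out, the difference was -12.

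**Figure D3:**
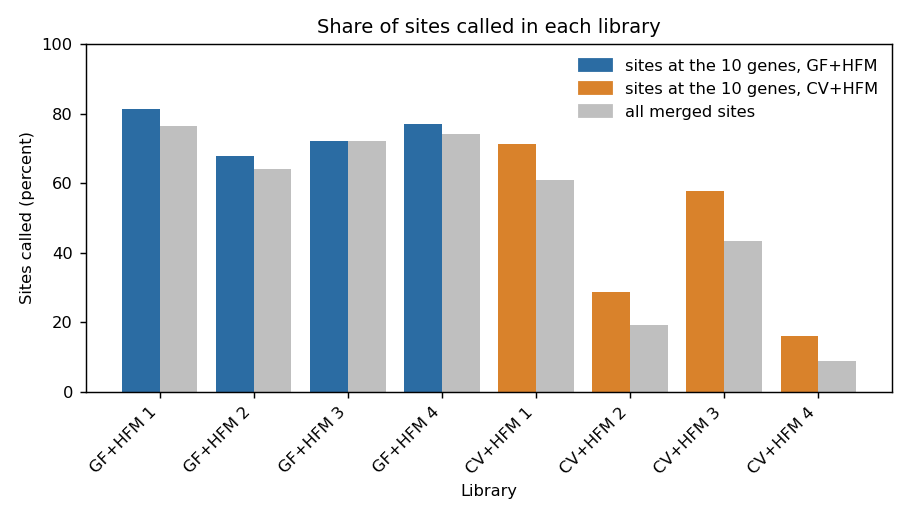
Coloured bars give the percent of the 118 sites at the 10 genes that each library called, and grey bars the percent of all 45552 merged sites. In each CV+HFM library the coloured bar exceeds the grey one, from 71.2% against 60.8% in replicate 1 to 16.1% against 8.97% in replicate 4.

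The 67 member sites called in all 4 GF+HFM mice were followed in the CV+HFM libraries. Since GF+HFM calls chose these sites, a lower share in CV+HFM is built in. Only the members beside all sites chosen in the same way can be read. CV+HFM replicate 1 called all 67, replicate 2 called 33 (49.3%), replicate 3 called 60 (89.6%) and replicate 4 called 19 (28.4%). Of all 23049 such sites in the genome, the same libraries called 91.6%, 37.1%, 78.0% and 17%. The member sites were also broader to begin with. When the 23049 sites were divided into 4 equal classes by their mean width percentile in GF+HFM, 29 of the 67 member sites (43.3%) fell in the broadest class and 7 (10.4%) in the narrowest. In the broadest class, the mean CV+HFM library called 85.3% of member sites and 79.2% of all sites. In the next it called 60.5% against 63.4%, in the one after 47.9% against 48.9%, and in the narrowest 39.3% against 32.2%. From the broadest to the narrowest, the classes held 29, 19, 12 and 7 member sites. Member sites were called more often than all sites in 2 of the 4 classes and less often in the remaining 2. With so few sites per class no conclusion is drawn, and the part of width in the overall difference was not tested further.

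At single sites, calls were compared by Fisher's exact test of 4 against 4 libraries, two-sided, which can reach p = 0.0286 at the smallest, when 4 libraries of 1 group and none of the other call a site. That pattern was seen at 1269 of the 45552 sites (2.79%), each time with the 4 calls in GF+HFM, and at 0 of the 118 member sites. The smallest p at a member site was 0.143, at 10 sites with 4 calls in GF+HFM and 1 in CV+HFM, or 3 and 0, such as Ezr site 8, Pls1 site 11 and Cdh17 site 2. No site in the genome passed at an adjusted p of 0.05. With 0.0286 as the smallest p of Fisher's test, passing would need most of all sites to reach it. The adjusted result therefore says little about single sites. By counts, 95 member sites had more calls from germ-free than from colonized mice, 19 had equal numbers and 4 had more from colonized mice. These are 80.5%, 16.1% and 3.39%, beside 86.5%, 10.7% and 2.86% of all sites, so the share with more germ-free calls was no higher at the members than over the genome. Those 4 were weak sites. Pls1 site 1, Eps8 site 10 and Eps8 site 13 were called in CV+HFM replicate 1 alone, at percentiles 6.74, 7.13 and 13.1, and each lay in an intron. Ezr site 3, 121 bp beyond the gene end, was called in GF+HFM replicate 1 at 39.8 and in CV+HFM replicates 1 and 3 at 3.84 and 6.61.

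With a site that was not called set to percentile 0, all 4 GF+HFM values exceeded all 4 CV+HFM values at 9 member sites (7.63%), against 11.4% of all sites. These percentiles come from lists of 4533 to 36846 peaks, so the order of the groups and the length of the lists cannot be told apart. The 9 sites were Vil1 7 and 9, Ezr 12, Espn 4, Pls1 9 and 16, Eps8 8, Cdhr2 7 and Cdh17 8. Of these, only Cdhr2 7 was called in all 8 libraries and could be ranked among such sites, and there its groups overlapped. The gap was widest at Espn site 4, in intron 8, where the lowest GF+HFM percentile was 76.4 and the highest CV+HFM percentile 42.2. The opposite order was seen at none of the member sites and at 0.0527% of all sites.

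Gene by gene, all 10 members had a higher mean number of called sites in GF+HFM. Every GF+HFM list was longer than every CV+HFM list, and 86.5% of all merged sites had more calls from germ-free mice. The share of all genes with this direction was not computed, so the count does not set the members apart. No member differed by the two-sided exact permutation test, which has 70 relabellings. Across 20459 genes with a site, 11.2% had p under 0.05, all with more sites in GF+HFM, and none passed after adjustment over all genes. The smallest p of the permutation test is 0.0286, so passing would need most of all genes to reach it. At Vil1 the libraries called 17, 15, 17 and 18 sites in GF+HFM and 16, 6, 16 and 3 in CV+HFM (exact permutation p = 0.143). At Ezr they called 14, 10, 12 and 12 against 11, 3, 8 and 1 (p = 0.0571 by the exact permutation test), and at Cdh17 8, 5, 8 and 7 against 5, 3, 4 and 2 (the same test gave p = 0.0571). These were the lowest p-values among the members, with an adjusted p of 0.316 by the permutation test. Pls1 had 12, 10, 13 and 15 sites against 12, 4, 9 and 3, and Eps8 had 17, 12, 15 and 14 against 16, 5, 9 and 3. In each of the 10 genes the groups overlapped or touched. Without CV+HFM replicate 1, the exact permutation test gave p = 0.0286 at Ezr, Pls1 and Eps8, with an adjusted p of 0.0914. These are 3 of 10 members, where 31.3% of all genes had p under 0.05 by the same permutation test.

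**Figure D4:**
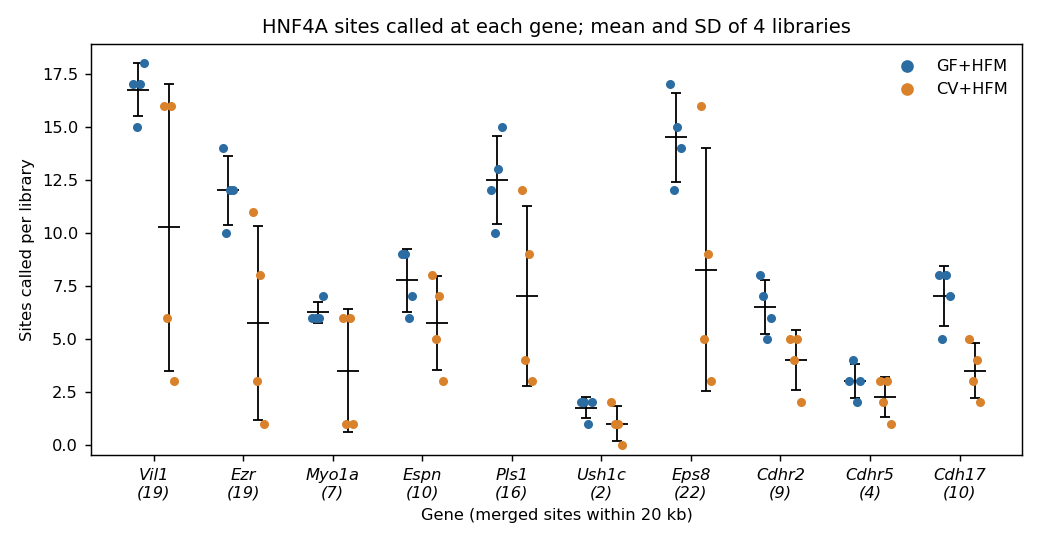
Points are the numbers of HNF4A sites that single libraries called at each gene, blue for GF+HFM and orange for CV+HFM, with the mean and SD of 4 libraries in black and the number of merged sites in parentheses. The CV+HFM points spread widely, at Vil1 from 3 to 16 sites, and reach into or up to the GF+HFM points at each gene.

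The relative width of the 17 shared sites was compared next. Ranking within a library puts the widths on a common scale but need not remove every difference between libraries. The sites that can be compared also depend on the shortest list. Without CV+HFM replicate 4 they were 8375 in place of 3445. For the 3445 sites with a call in every library, widths were ranked per library, turned into normal scores and tested with limma. Of the 3445 sites, 4 (0.116%) passed at an adjusted p of 0.05, all lower in CV+HFM, and 398 had an unadjusted p under 0.05. None of the 17 member sites passed, and 1 had an unadjusted p under 0.05. The score was lower in CV+HFM at 10 sites and higher at 7, with a median difference of -0.20 and a range from -0.59 to 1.09. The highest was Espn site 8, where the difference was 1.09 ± 0.40 (SE) with an adjusted p of 0.332 by limma. Among the shared sites its rank percentile was 29.3, 10.2, 6.55 and 2.86 in GF+HFM and 24.7, 36.76, 40.01 and 66.2 in CV+HFM. The lowest was Cdhr2 site 6, at -0.59 ± 0.44 and an adjusted p of 0.598 by limma. There CV+HFM replicate 2 was at 37.3 while the other 7 libraries were at 79.4 or above. At the Vil1 start, site 8 differed by 0.29 ± 0.36 and was between 92.0 and 99.0 in all libraries. The standard errors of the 17 sites were 0.35 to 0.49, and a difference as large as that at Espn site 8 did not pass with these libraries.

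**Figure D5:**
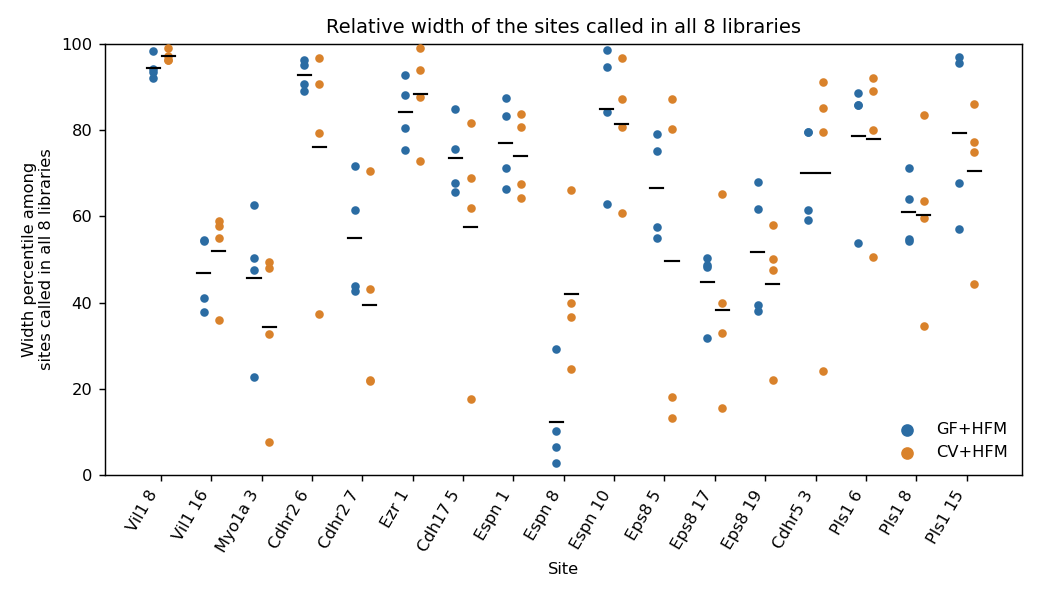
For each site called in all 8 libraries, points give its width percentile among the 3445 such sites in single libraries, blue for GF+HFM and orange for CV+HFM, with black lines at the means of 4. Vil1 site 8 stays at the top in both groups, and Espn site 8 has 3 of its 4 CV+HFM points above all 4 GF+HFM points.

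A second list of 30 other genes of the brush border cytoskeleton and its membrane traffic was described by counts. All but Pls3, another plastin, had at least 1 site, with a median of 8.5 and up to 37 at Myo5b, the myosin of apical recycling endosomes. Of their 304 sites, 34 (11.2%) were called in all 8 libraries, beside 7.56% of all sites, and 10 (3.29%) in all 4 germ-free mice and 0 colonized mice, beside 2.79% of all sites. A site called in all 8 libraries was present at 18 of the 30 genes, beside 9 of the 10 members and 16.8% of coding genes. In all, 6 of the 30 genes had an exact permutation p of 0.0286, all with more sites in GF+HFM, beside 11.2% of all genes. They were Anks4b, a scaffold of the tip-link complex, Myo5b, Myo6, a motor of endocytosis, Pdzk1, a scaffold of apical transporters, Lima1, an actin-binding protein, and Muc13, a membrane mucin. At Anks4b the libraries called 8, 7, 7 and 8 sites in GF+HFM and 6, 1, 4 and 1 in CV+HFM, and at Myo6 they called 11 in each GF+HFM library and 10, 2, 10 and 0 in CV+HFM. None of the 6 passed after adjustment over all genes, the adjusted p of each being 0.255 by the permutation test. As said above, passing would need most of all genes to reach the smallest p.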

How the data were processed

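The deposited files were 8 lists of HNF4A peaks, each with chromosome, start, end and peak name. The authors aligned 50 bp single-end reads to mm9 with Bowtie2 and called narrow peaks in each mouse with MACS2 2.1.1.20160309 against input, at a false discovery rate under 0.05 and a bandwidth of 300 bp. The lists hold no peak height or read count, so sequencing depth is unknown, and peak width stood in for the planned peak strength. RNA, H3K27ac and input libraries were not analysed here.

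Peaks with an overlap of 1 bp or more were merged. Genes came from GENCODE M1, and starts were converted to positions counted from 1. No peak ended beyond its chromosome in NCBIM37 for the 22 names compared. Where a library had several peaks in a site, the widest was ranked. Calls were compared by Fisher's exact test and an exact permutation test over 70 relabellings with SciPy 1.17.1 and Python 3.11.15, with Benjamini-Hochberg adjustment over all sites or genes, and width ranks with limma 3.58.1 in R 4.3.3. The limma test was checked on simulated data, and the permutation test against that of SciPy on a few made-up rows. Sites were numbered along the chromosome within each gene. Named one by one were sites called in all 8 libraries, in 4 GF+HFM and 0 CV+HFM libraries or in more CV+HFM libraries, and for each member the site nearest the gene start and that with the highest mean percentile. Other sites were chosen after their values were seen. The genes and lists were chosen with earlier results of these data known. Alternatives changed the flank, the overlap, the peaks kept, the libraries, the scaling of width and the pairing.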

Additional observations from a re-analysis of the deposited data

Results flagged for a closer look

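In 59 groups of 4 libraries, the lowest or highest value was compared with the spread of its group, and 3 stood apart by Dixon's criterion, which chance gives in about 1 of 20 groups. All 3 were width percentiles among the sites called in all 8 libraries, and they came from 3 different libraries. At Vil1 site 16, CV+HFM replicate 3 was at 35.98, where the other CV+HFM libraries were at 55.04 to 58.88. At Eps8 site 17, GF+HFM replicate 1 was at 31.89, where the others were at 48.2 to 50.38. At Pls1 site 6, GF+HFM replicate 2 was at 53.83, where the others were at 85.79 to 88.74.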

How the results depend on the processing

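The difference in member sites called per library, -36.75, was between -47.667 and -26 when each library was left out in turn. It became -0.25 with the widest 4533 peaks of each list, the alternative that equalizes list lengths, and -12 without CV+HFM replicates 2 and 4, which was chosen after seeing the data. It was -56.5 when peaks had to cover at least 50% of a site, where CV+HFM replicates 2 and 4 called 1 and 0 member sites. This and the other 6 alternatives moved it by less than the pooled SD of replicates, 21.7, though 1 of the 6, the replicate block, cannot move it. Libraries whose identifier in the peak names ends in A (2 GF+HFM, 3 CV+HFM) differed by -26 and those without the letter by -69, the latter with 1 CV+HFM library. What the letter stands for is not given in the sources used here. The number of member sites with an unadjusted Fisher p under 0.05, 0 with all libraries, was 7 with 50% coverage (5.93%, beside 4.89% of all sites), 3 with peaks at least 300 bp wide (3.41% beside 3.74%) and 0 to 7 with a library left out, the highest being without CV+HFM replicate 1 (6.09% beside 10.9%). Member genes with a permutation p under 0.05, also 0, were 2 of 10 with 50% coverage (Vil1 and Cdhr2, beside 16.3% of all genes), 1 with peaks at least 300 bp wide (Cdh17, beside 10.7%), 1 with a flank of 50 kb (Myo1a, beside 16.2%), 1 with gene bodies only (Ezr, beside 8.3%, an alternative added after seeing the data) and 0 to 3 with a library left out. Each of these had more sites in GF+HFM, and the cause of the changes was not tested. None passed after adjustment, which would need most of all sites or genes to reach the smallest p of the exact tests. Of the width ranks, 0 member sites passed in all 10 alternatives run. Without CV+HFM replicates 2 and 4, the exact tests cannot go below p = 0.0667, so their counts of 0 say nothing about stability.

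With the replicate number as a replicate block, the difference stayed at -36.75, which a block balanced over the groups cannot change. No member gene could have p under 0.05, since 0.125 is the smallest the blocked permutation test allows, and 0 member sites passed the limma test. The correlations of same-numbered libraries' deviations were 0.0419, 0.0569, -0.0555 and 0.154, so the numbers were not treated as pairs. Alternatives based on peak strength could not be run, since the lists hold none. Without heights or counts, a site that was not called may be a weak peak in a library with few peaks.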
